A study of Homo sapiens with 10 samples.

Results

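The genes described here lie on human chromosome 12 from the tip of the short arm to position 76653663 of the hg19 build, a stretch that holds the whole short arm and the long arm up to band q21. They were chosen by position and by expression. A gene entered when its row of the deposited table started at or before that position on chromosome 12 and when its FPKM multiplied by transcript length in kilobases (its cpm) was at least 1 in at least 2 of the 10 libraries. Where a symbol had several transcript rows, the row with the highest mean FPKM was used. Of 866 symbols listed in the stretch, 62 noncoding RNA symbols (those starting with LINC, SNOR or SCARNA) and 6 further symbols were left out, 364 others did not reach the filter and 434 genes remained, out of 13333 tested genes in the whole series. The end position was set with the values of the *VEGFC-LNC* comparison known, so that this comparison chose the stretch and its values are given below as a description, with no test of the members. Of the 434 genes, 400 are annotated as protein coding, 20 as noncoding RNAs and 14 as pseudogenes. By band, 114 genes lie in 12p13, 67 in 12p12 to 12p11, 186 in 12q11 to 12q13 and 63 in 12q14 to 12q21, and 4 genes have no band.

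RNA-Seq was carried out by the authors on rRNA-depleted total RNA of EA.hy926, an established human endothelial line made by fusing umbilical vein endothelial cells with the lung carcinoma line A549. The groups are 3 clonal lines with a CRISPR/Cas9 deletion of *VEGFA-LNC*, a long noncoding RNA near *VEGFA* on chromosome 6, 3 clonal lines with a deletion of *VEGFC-LNC*, a long noncoding RNA near *VEGFC* on chromosome 4, and 2 control libraries for each deletion. The control cells received the guide RNAs of their deletion without the Cas9 enzyme and passed through the same clonal selection, so that guide delivery and growth from selected cells are shared by all 10 libraries. Each deletion library comes from 1 clone, and whether the 2 controls of a set are separate clones or separate cultures is not given in the sources used here. The p-values therefore measure only the spread between these libraries. The deleted transcripts themselves were not analysed here. Neither deletion lies on chromosome 12.

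The stretch is dense in genes that nearly every cell uses. The short arm carries *GAPDH* and *TPI1* of glycolysis, the cell cycle inhibitor *CDKN1B*, the mitotic transcription factor *FOXM1* and the natural killer lectin receptors. The long arm carries the alpha-tubulin genes, the type II keratins, the HOXC cluster of homeobox transcription factors, the cyclin-dependent kinases *CDK2* and *CDK4*, and *MDM2*, which opposes p53. Because *GAPDH* is a common reference gene, and 1 of those used for RT-qPCR in the study, its level matters beyond the chromosome itself.

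The libraries held 6743975 to 24197615 reads, as recovered from the step size of the FPKM values, and the shallowest was *VEGFC-LNC* clone 3. Of 8 endothelial markers 7 passed the filter, with summed levels of 368 to 383 FPKM in the *VEGFA-LNC* controls, 285 to 950 in their clones, 543 to 555 in the *VEGFC-LNC* controls and 477 to 789 in their clones, and *CLDN5* was listed at 0 in every library. Of 6 epithelial markers only *KRT7*, *KRT8* and *KRT18* passed, and these 3 lie in the stretch. The epithelial markers summed to 1077 to 1087 FPKM in the *VEGFA-LNC* controls and 487 to 1311 in their clones. In the *VEGFC-LNC* controls they summed to 898 to 911 FPKM and in their clones to 439 to 866. Smooth muscle and fibroblast markers summed to at most 1.04 FPKM and blood markers to at most 0.27 FPKM. The 2 controls of a set lay close together, with a median SD of a member on the log2 scale of 0.0549 and 0.0582, against 0.308 between the *VEGFA-LNC* clones and 0.261 between the *VEGFC-LNC* clones. Read counts of the control pairs still differed by more than sampling noise (chi-square per degree of freedom 3.76 and 1.54). This was far less than between clones, at 25.9 to 138 for *VEGFA-LNC* and 18.3 to 55.9 for *VEGFC-LNC*. Each control was counted as a library, although these values do not show that the 2 controls of a set are separate clones. The calls given below depend on this choice.

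In the *VEGFC-LNC* clones the genes of the stretch were lower as a body. Relative to the median gene of the other chromosomes in the same library, the median level of the 434 genes, on the log2 scale and centred on the mean of the 10 libraries, was 0.07 and 0.06 in the *VEGFA-LNC* controls. It was 0.15, 0.09 and 0.11 in the *VEGFA-LNC* clones, and 0.14 and 0.14 in the *VEGFC-LNC* controls. In the 3 *VEGFC-LNC* clones it was −0.27, −0.20 and −0.23. The 3 clones thus lay below the 7 other libraries and close to one another. The share of the reads of tested genes that came from the stretch was also lowest in these 3 clones. It was 5.52% and 5.51% in the *VEGFA-LNC* controls, 6.33%, 5.55% and 5.61% in the *VEGFA-LNC* clones, 6.10% and 6.12% in the *VEGFC-LNC* controls and 4.49%, 4.41% and 4.48% in the *VEGFC-LNC* clones. The widest 95% Wilson interval of these shares, that of *VEGFC-LNC* clone 3, runs from 4.47% to 4.50% and covers counting error only. Without the 10 members of the highest mean FPKM, the group means were 4.50% ± 0.0122 (SD, n = 2), 4.68% ± 0.152 (SD, n = 3), 4.73% ± 0.00915 (SD, n = 2) and 3.58% ± 0.0574 (SD, n = 3), in the same order of groups. In bulk RNA a lower level in each cell and fewer cells expressing a gene cannot be told apart.

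**Figure D1:**
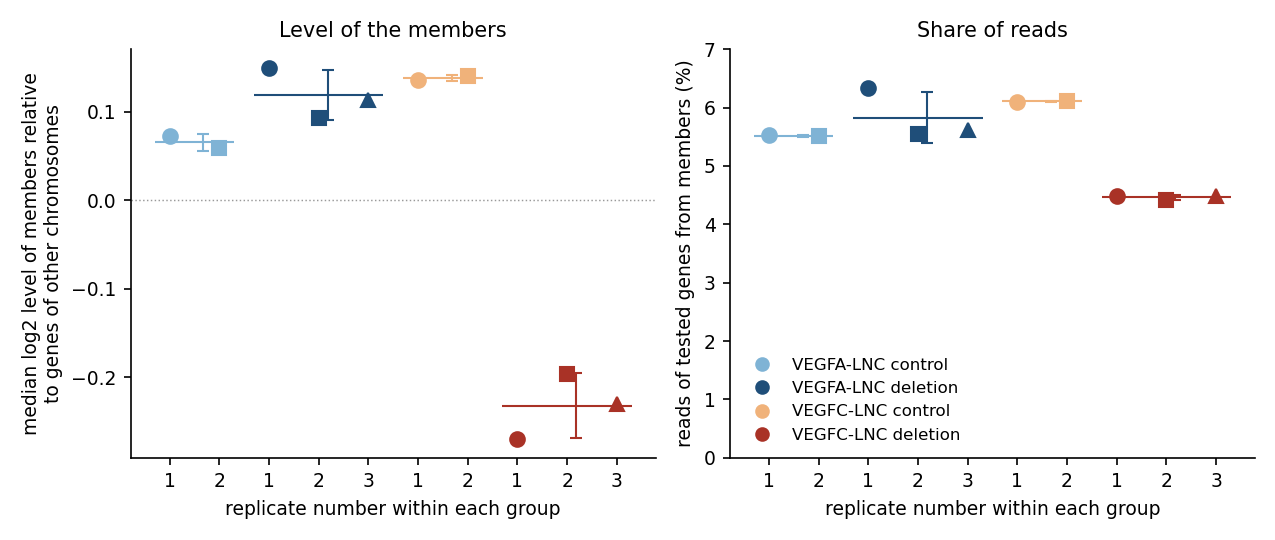
Level of the 434 genes in each library. Left, median log2 level of the members minus that of the genes of other chromosomes, each gene centred on its mean over the 10 libraries; right, percent of the reads of tested genes that came from members, on an axis from 0. Points are libraries by replicate number (circle 1, square 2, triangle 3), lines are group means and bars are SDs. The 3 *VEGFC-LNC* clones sit at −0.27 to −0.20 and at 4.41% to 4.49%, below the other 7 libraries in both panels.

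Set against their own 2 controls as log2(FPKM + 0.1), the *VEGFC-LNC* clones had a median log2 difference of −0.47 over the 434 genes, with quartiles of −0.78 and −0.16, which is a level 0.721 times that of the controls. Clone by clone the median was −0.42, −0.47 and −0.40 (SD 0.034, n = 3). The 12899 other tested genes had a median of −0.08, and the 270 other tested genes of chromosome 12 had a median of −0.10. Of the members, 371 (85.5%) had a negative difference, against 59% of all 13333 tested genes. The clones and controls did not overlap in many members. In 273 (62.9%) every clone was the lower, against a background of 30.6% of tested genes, and in 24 (5.53%) every clone was the higher, against 17.2%. The comparison chose the stretch, so nothing is read from these counts beyond their size. Medians below that of the other genes were not seen on chromosome 12 alone. Of the other autosomes with at least 100 tested genes, chromosome 16 had a median of −0.42 in the same comparison, with 85.3% of its 631 tested genes negative, chromosome 4 a median of −0.26 (70.9% negative) and chromosome 6 a median of −0.18 (67% negative). The other medians lay between −0.14 and 0.10.

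The difference was seen in low and high genes alike. The tertile of members with the lowest mean FPKM had a median of −0.43, the middle tertile −0.51 and the highest tertile −0.47. Protein-coding members had a median of −0.47, noncoding RNAs of −0.56 and pseudogenes of −0.68, with all 14 pseudogenes lower. The 208 members in none of the gene lists used below had a median of −0.47, and the 405 members outside the cell cycle list had −0.45.

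**Figure D2:**
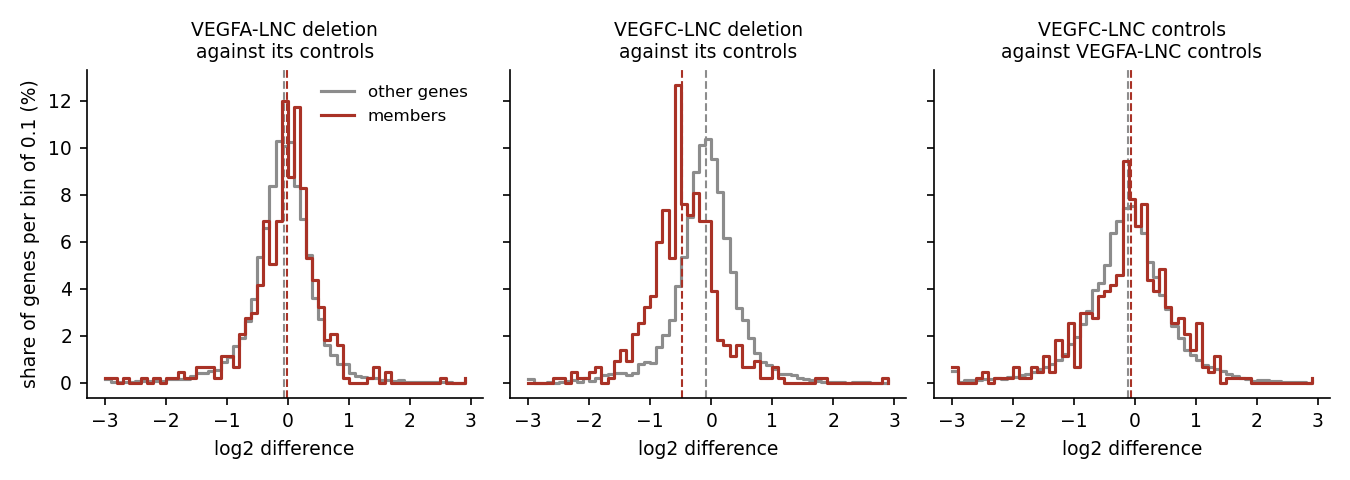
Distribution of log2 differences over the 434 members (red) and the 12899 other tested genes (grey) in the 3 comparisons. The x axis is the fitted log2 difference on the log2(FPKM + 0.1) scale, with values beyond 3 placed in the end bins, the y axis is the percent of the genes of each set per bin of 0.1, and dashed lines are medians. The members lie to the left of the other genes in the middle panel, at medians of −0.47 and −0.08, and near them in the other panels.

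Along the chromosome the members were split into 14 windows of 31 consecutive genes. In the *VEGFC-LNC* comparison the window medians ran from −0.76 to −0.25, and all 14 windows were below 0 in each of the 3 clones. The next 8 windows of 31 genes, from *BBS10* to *MMP17*, had medians of −0.18 to 0.01, and the tested genes beyond *MMP17* were in no window. The last window of the stretch, from *CAND1* to *NAP1L1*, stood at −0.50 and the first one after it, from *BBS10* to *MRPL42*, at −0.08. On a scale of single genes the end was not sharp. The last 4 members before the end position were *GLIPR1*, *KRR1*, *PHLDA1* and *NAP1L1*, with log2 differences of −1.16, −0.55, −0.09 and −0.26. The first 4 tested genes beyond it, *BBS10*, *OSBPL8*, *ZDHHC17* and *CSRP2*, had −0.31, −0.67, −0.30 and −1.69.

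Within the stretch the clones parted on 12p13. There clone 1 had a median difference of −0.84, clone 2 of −0.56 and clone 3 of −0.41, and their levels relative to the other chromosomes were −0.67, −0.17 and −0.19. The first 4 windows, which start at 0.07 Mb and whose last gene starts at 17.1 Mb, had medians of −0.94, −1.01, −0.74 and −0.82 in clone 1. In clone 2 the same windows had −0.58, −0.66, −0.50 and −0.55, and in clone 3 they had −0.56, −0.30, −0.52 and −0.43. In the other bands clone 1 was not the lowest. In 12p12 to 12p11 the 3 clones had −0.29, −0.42 and −0.39, in 12q11 to 12q13 they had −0.31, −0.42 and −0.33, and in 12q14 to 12q21 they had −0.39, −0.49 and −0.55. The difference between the clones was not tested, since each is a single library.

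*GAPDH* (NM_002046, 12p13.31, 6643683 to 6647541), the enzyme of glycolysis that oxidizes glyceraldehyde 3-phosphate, had the highest mean FPKM of the members and stood at 1807 and 1862 FPKM in the *VEGFA-LNC* controls, 2131, 1592 and 1446 in the *VEGFA-LNC* clones, 2195 and 2129 in the *VEGFC-LNC* controls and 779, 889.8 and 1420.4 in the *VEGFC-LNC* clones. The 3 *VEGFC-LNC* clones were the lowest of the 10 libraries, clone 3 only just below the lowest *VEGFA-LNC* clone, and the log2 difference was −1.12 (−1.47, −1.28 and −0.61 by clone, a 2.17-fold lower level). *ACTB*, the beta-actin gene on chromosome 7 and another common reference, had a log2 difference of −0.49 in the same comparison. The ratio of *GAPDH* to *ACTB* was 1.42 and 1.54 in the *VEGFA-LNC* controls, 1.38, 1.45 and 1.23 in their clones, 1.15 and 1.11 in the *VEGFC-LNC* controls and 0.608, 0.760 and 0.847 in theirs. In the *VEGFA-LNC* comparison *GAPDH* did not pass the test (log2 FC −0.11, SE 0.29, FDR 0.871).

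The sequences just upstream of 2 members are shown, since one is the cell cycle inhibitor of the stretch and the other a cell cycle gene with one of the largest decreases there. Each is the 100 bases before the listed start in hg19, 5′ to 3′ on the strand of the gene, and capitals mark motif matches on either strand. The CCAAT box was searched by the letters of its name, the TATA box as TATAAA, the GC box as GGGCGG and the E-box as CACGTG.
CDKN1B, chr12:12870104-12870203, plus strand: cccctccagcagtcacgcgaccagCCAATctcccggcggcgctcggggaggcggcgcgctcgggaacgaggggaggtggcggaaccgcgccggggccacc
CDCA3, chr12:6961095-6961194, minus strand: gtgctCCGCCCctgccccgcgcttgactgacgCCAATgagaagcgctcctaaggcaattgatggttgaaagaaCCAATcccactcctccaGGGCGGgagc
*CDKN1B* has 1 CCAAT box in these bases, and *CDCA3* has 2 CCAAT boxes and 2 GC boxes. Over the 250 bases upstream, a CCAAT box was found in 32.5% of the members and 33.2% of all tested genes, a GC box in 55.5% and 58.6%, a TATA box in 8.99% and 6.62%, and an E-box in 7.14% and 7.80%. The motifs were searched on both strands and may overlap. Members with a CCAAT box had a median *VEGFC-LNC* difference of −0.51 and those without one of −0.47. By GC content of these 250 bases, the lowest tertile of members (27.6% to 54.8%) had a median of −0.55, the middle tertile −0.42 and the highest tertile (65.2% to 85.6%) −0.46. The lower level was thus seen with and without a CCAAT box and in each tertile, and a match is only a run of letters, not a bound site.

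Of 17 members of glycolysis and mitochondrial energy supply, 15 had a negative *VEGFC-LNC* difference, with a median of −0.56. Each clone lay under each control in 11 (64.7%, all members 62.9%, background 30.6%). In 1 each clone lay above (5.88%, all members 5.53%, background 17.2%). These shares are near those of all members. *TPI1*, triose phosphate isomerase, was at 346 and 326 FPKM in the *VEGFC-LNC* controls and 139, 155 and 189.9 FPKM in the clones. *ATP5F1B*, the beta subunit of ATP synthase, was at 261 and 269 FPKM in the *VEGFC-LNC* controls and 179, 138 and 144 FPKM in the clones. In neither gene did the groups overlap (−1.07 and −0.79 on the log2 scale). *LDHB*, lactate dehydrogenase B, was at 1047 and 1114 FPKM in the *VEGFC-LNC* controls and 935, 675 and 684 FPKM in the clones, with clone 1 closest to the controls. In the *VEGFA-LNC* clones the median of the list was 0.04 and none of the 17 passed the test.

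The cell cycle and DNA replication list had the lowest median of the 11 lists, −0.99 over 29 members, with 28 negative. In 25 each clone lay under each control (86.2%, all members 62.9%, background 30.6%). *FOXM1* (NM_021953, 2966847 to 2986321), a transcription factor of mitotic genes, stood at 20.01 and 18.8 FPKM in the *VEGFA-LNC* controls, 42.6, 4.56 and 7.81 in the *VEGFA-LNC* clones, 48.6 and 49.4 in the *VEGFC-LNC* controls and 17.1, 4.99 and 14.3 in the *VEGFC-LNC* clones. Clone 2 of each deletion was the lowest of its group, and *VEGFA-LNC* clone 1 was close to the *VEGFC-LNC* controls. *CDCA3*, which promotes entry into mitosis, had 8.3 and 8.03 FPKM in the *VEGFC-LNC* controls and 3.47, 0.596 and 1.98 FPKM in the clones. *TROAP*, a spindle-associated protein, had 27.6 and 30.1 FPKM in the *VEGFC-LNC* controls and 9.39, 2.89 and 4.97 FPKM in the clones. These are the largest decreases in the list, at −2.19, −2.26 and −2.46. *TUBA1B*, an alpha-tubulin, was at 1154 and 1160.2 FPKM in the *VEGFC-LNC* controls and 615, 273 and 487 FPKM in the clones, and *TUBA1C* had a difference of −1.33, *TUBA1A* of −0.85 and the helicase gene *RECQL* of −0.39. The tubulin genes are near copies, and how the counting split shared reads is not given in the sources used here. The kinase genes *CDK2* and *CDK4*, named after their values were seen, both differed by −0.99. The 1 member of the list that lay above both controls was *MDM2*, also named for this reason, at 39.3 and 40.7 FPKM in the *VEGFC-LNC* controls and 54.4, 58.9 and 100.4 FPKM in the clones.

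Cell cycle genes outside chromosome 12 moved in the same direction. Over 20 proliferation genes of other chromosomes, among them *MKI67*, *TOP2A* and *PCNA*, chosen after the data were seen, the median *VEGFC-LNC* difference was −1.56 with all 20 lower, at −0.63, −2.44 and −1.60 in the 3 clones. In the *VEGFA-LNC* comparison their median was −0.57 (1.20, −1.73 and −1.27 by clone) and between the control sets it was 1.42. The cell cycle members followed this order, with −0.77, −1.26 and −1.15 in the *VEGFC-LNC* clones, 0.75, −0.31 and −0.22 in the *VEGFA-LNC* clones and 0.82 between the control sets. The part of this in the result for the members was not tested, and outside the cell cycle list the median was −0.45, as given above. The inhibitor *CDKN1B*, which acts against the cell cycle, was at 9.48 and 8.73 FPKM in the *VEGFA-LNC* controls, 12.7, 13 and 11.6 in the *VEGFA-LNC* clones, 14.6 and 13.8 in the *VEGFC-LNC* controls and 7.38, 7.95 and 6.13 in the *VEGFC-LNC* clones, lowest in the *VEGFC-LNC* clones.

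Members in the 2 lists of general gene expression were lower with few exceptions. Both lists are broad and also hold genes of other functions. Of 38 members in the list of chromatin proteins and transcription factors, 35 had a negative *VEGFC-LNC* difference, with a median of −0.56. In 33 each clone lay under each control (86.8%, all members 62.9%, background 30.6%). Of 35 members in the list of RNA binding, splicing and translation, 34 were negative, with a median of −0.51. In 30 each clone lay under each control (85.7%, all members 62.9%, background 30.6%), and in none the reverse. *PCBP2*, a poly(C)-binding protein, was at 198 and 194 FPKM in the *VEGFC-LNC* controls and 118, 119 and 122 FPKM in the clones, which is −0.73, −0.71 and −0.69 by clone. *NACA*, a chaperone of nascent chains, was at 295 and 300.4 FPKM in the *VEGFC-LNC* controls and 185, 204 and 212 FPKM in the clones. *HMGA2*, an architectural chromatin protein, was at 112 and 113 FPKM in the *VEGFC-LNC* controls and 63.1, 84.3 and 68.1 FPKM in the clones, and *YBX3*, an RNA- and DNA-binding cold shock protein, was at 119 and 119 FPKM in the *VEGFC-LNC* controls and 63.9, 110.1 and 112 FPKM in the clones. Clone 1 is the lowest for *NACA*, *HMGA2* and *YBX3* and in none of the 4 genes do clones and controls overlap. The differences of *MLF2*, *EIF4B* and *RPL41* were −0.61, −0.38 and −0.55. *HNRNPA1* had −0.80, but it shares sequence with processed copies, 1 of which is also a member. In the *VEGFA-LNC* comparison the medians of the 2 lists were 0.13 and 0.05 and no member passed the test.

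The HOXC cluster, 5 homeobox genes next to one another in 12q13.13, was at low levels and lower throughout. *HOXC6* was at 6.41 and 5.27 FPKM in the *VEGFC-LNC* controls and 4.23, 3.29 and 3.89 FPKM in the clones, *HOXC9* at 3.42 and 3.25 FPKM in the *VEGFC-LNC* controls and 1.71, 2.47 and 2.65 FPKM in the clones and *HOXC8* at 1.75 and 1.9 FPKM in the *VEGFC-LNC* controls and 1.45, 1.47 and 1.49 FPKM in the clones. The 5 genes ranged from −0.61 to −0.20 (median −0.54), with *HOXC4* at −0.54. In 4 of them the clones lay below both controls (80%, all members 62.9%, background 30.6%). The row of *HOXC5* spans that of *HOXC6*, and reads in the shared part cannot be told apart. The type II keratins and *KRT18*, in the same band, did not form such a group, since their 5 members ran from −1.28 to 0.80. *KRT8* and *KRT18*, partners in the filaments of simple epithelia, were at 324 and 316 FPKM in the *VEGFC-LNC* controls and 175, 95.2 and 146 FPKM in the clones and at 333 and 335 FPKM in the *VEGFC-LNC* controls and 189, 101 and 136 FPKM in the clones, respectively. *KRT7* was at 253 and 247 FPKM in the *VEGFC-LNC* controls and 502, 242 and 412 FPKM in the clones, with clones 1 and 3 above the controls and clone 2 below, and *KRT80* differed by 0.00.

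Several lists of surface and signalling genes held members on both sides. Of 21 members in the broad endothelial and angiogenic list 14 were negative, with a median of −0.25. In 9 the clones lay below both controls (42.9%, all members 62.9%, background 30.6%). In 5 they lay above (23.8%, all members 5.53%, background 17.2%). *CD9*, a tetraspanin, was at 318 and 339 FPKM in the *VEGFC-LNC* controls and 341, 637 and 628 FPKM in the clones, and *ITGA5*, the alpha subunit of the fibronectin receptor, at 139.7 and 134 FPKM in the *VEGFC-LNC* controls and 147, 152 and 176 FPKM in the clones. In both genes the clones lie above the controls, although by little in clone 1 of *CD9*. *EMP1*, an epithelial membrane protein, was at 228 and 238 FPKM in the *VEGFC-LNC* controls and 140.1, 147 and 176 FPKM in the clones. *ARHGDIB*, a GDP-dissociation inhibitor of small GTPases that stands in 2 lists, was at 230.0 and 221 FPKM in the *VEGFC-LNC* controls and 68.6, 60.4 and 142 FPKM in the clones, with a difference of −1.43. Of 27 members of membrane traffic, lysosome and autophagy, 21 were negative with a median of −0.17. The most abundant of them, the lysosomal tetraspanin *CD63*, was at 216 and 226 FPKM in the *VEGFC-LNC* controls and 280.5, 423 and 311 FPKM in the clones, above the controls in all 3 clones, while *TMBIM6*, *SLC38A2* and *GOLT1B* differed by −0.25, −0.08 and 0.14.

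Of 20 cytoskeleton and adhesion members 14 were negative (median −0.31), and *MYL6*, a myosin light chain, was at 262 and 275 FPKM in the *VEGFC-LNC* controls and 190.3, 221 and 285 FPKM in the clones, overlapping the controls. Of 27 members of RAS, growth factor and WNT signalling 21 were negative (median −0.42). In this list *IGFBP6*, which binds insulin-like growth factors, differed by −0.98, *RASSF3* by −0.28 and *RASSF8* by 0.08. Of 16 immune and lectin-like members 12 were negative (median −0.40), with *STAT6* at −0.38, *TBK1* at −0.24, *TAPBPL* at −0.51 and *CLEC2D* at −0.54.

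**Figure D3:**
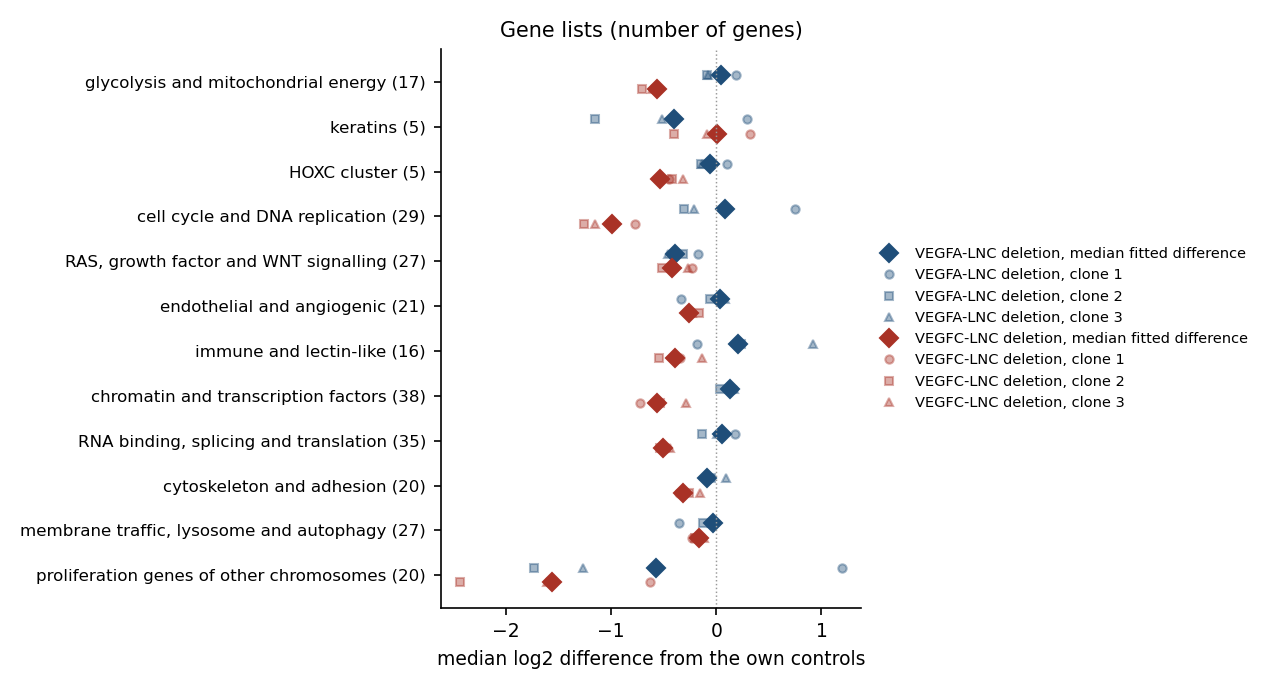
Median log2 difference from the own controls for the 11 lists of members and for 20 proliferation genes of other chromosomes, with the number of genes in brackets. Diamonds are the medians of the fitted differences and small symbols single clones (circle 1, square 2, triangle 3), blue for *VEGFA-LNC* and red for *VEGFC-LNC*. The red diamonds lie left of 0 in 10 of the 11 lists, with the keratins at 0.00, and the blue ones of these lists between −0.40 and 0.21.

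Among members with a mean of at least 1 FPKM, the largest decreases in the *VEGFC-LNC* comparison were those of *METTL7A*, *TROAP*, *CDCA3*, *FOXM1* and *SPX*. *METTL7A*, a methyltransferase-like protein of lipid droplets, was at 2.18 and 1.97 FPKM in the *VEGFC-LNC* controls and 0.356, 0.096 and 0.438 FPKM in the clones, with 27, 6 and 10 reads in the clones (−2.58). *SPX*, the peptide hormone spexin, was at 0.593 and 0.662 FPKM in the *VEGFC-LNC* controls and 0.232, 0.094 and 0 FPKM in the clones, where the control set itself was low. The largest increases were those of *SLC6A12*, *RND1*, *AMIGO2*, *MANSC4* and *MIR1291*. *RND1*, a small GTPase, was at 1.08 and 0.847 FPKM in the *VEGFC-LNC* controls and 9.42, 1.89 and 2.24 FPKM in the clones, and clone 1 stands far above clones 2 and 3. *AMIGO2*, an adhesion protein, was at 20.8 and 23.8 FPKM in the *VEGFC-LNC* controls and 32.9, 42.4 and 88.5 FPKM in the clones. *SLC6A12*, a betaine and GABA transporter, was at 0.552 and 0.79 FPKM in the *VEGFC-LNC* controls and 1.64, 3 and 3.79 FPKM in the clones, with all 3 clones above both controls, and *MANSC4* was at 0.451 and 0.379 FPKM in the *VEGFC-LNC* controls and 0.3, 1.39 and 2 FPKM in the clones, with clone 1 below them. *MIR1291* is the row of a hairpin that lies within a small RNA gene, so that its reads cannot be given to the miRNA.

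The gene lists that the study drew from these libraries for *VEGFC-LNC* name 6 members, which is not independent evidence of their direction. *RND1* and *METTL7A* are given above. *NCKAP1L*, a regulator of actin in blood cells, was at 0.491 and 0.214 FPKM in the *VEGFC-LNC* controls and 0.023, 0 and 0 FPKM in the clones, and *INHBE*, the inhibin beta E subunit, at 0 and 0.067 FPKM in the *VEGFC-LNC* controls and 1.78, 0.528 and 0.603 FPKM in the clones. *SLC16A7* and *TBC1D30* stayed under 0.2 FPKM in these 5 libraries, with differences of −1.20 and −0.94. At so few reads the log2 difference depends on the pseudocount.

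The comparison of the *VEGFA-LNC* clones with their controls shares no library with the comparison that chose the stretch, and its members were tested. The spread behind its p-values was estimated from all 10 libraries, those of the *VEGFC-LNC* set among them. Here the members moved little as a body. The median log2 FC of the 434 genes was −0.01 (0.03, −0.05 and 0.00 by clone), and that of the other tested genes −0.06. With scaling by the median of ratios both moved alike, to 0.05 and −0.01. Each clone was under each control in 86 members (19.8%, background 23.7%) and above in 75 (17.3%, background 15.3%). By limma, 12 members passed an FDR under 0.05 and a 1.5-fold change, which is 2.76% of the members against 2.75% of all tested genes. Of these, 8 were lower (1.84%, background 2.02%) and 4 higher (0.922%, background 0.735%). An unadjusted p under 0.05 was found for 88 members (20.3%), against 19.8%. With the median of ratios scaling 16 members passed, 8 in each direction.

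The counts moved with single libraries, and the share of all tested genes moved with them. Without *VEGFA-LNC* control 1 or 2 no member passed in limma (50 and 41 had an unadjusted p under 0.05), where 0.0900% and 0.0450% of the tested genes did, although the differences stayed close to those given below (*ABCC9* −2.89 and −2.90, *TMTC1* 3.18 and 3.02). With each control pair averaged, chosen after the data were seen, neither a member nor any other gene passed (30 members had an unadjusted p under 0.05). Without *VEGFA-LNC* clone 1 the count was 65 (15.0% of the members, 13% of the tested genes). It was 7 without clone 2 (1.61% and 1.22%), 4 without clone 3 (0.922% and 0.810%) and 4 without either *VEGFC-LNC* control (0.922% and 0.750%).

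Of the 12, 9 lie in 12p12 to 12p11, between 18.8 and 29.7 Mb, which is 13.4% of the 67 members there (background 2.75%), and none lie in 12p13 or in 12q11 to 12q13. This grouping was seen after the calls were made and was not tested. Of the 9, only *RASSF8* and *TM7SF3* reached 1 cpm in all 10 libraries, and both kept their call under that filter. With replicate number added to the fit, only *ABCC9* and *TMTC1* of the 9 kept their call. The window from *PIK3C2G* to *ARNTL2* had the lowest median of the 14 windows in this comparison, −0.34, with clone 1 at 0.03 and clones 2 and 3 at −0.52 and −0.39. *PTHLH* and *TMTC1* lie in the next window, which stood at 0.12. Over the 67 members of 12p12 to 12p11 the median was −0.05 with 52.2% negative, near the −0.06 and 55.8% of all tested genes. *ABCC9*, a regulatory subunit of ATP-sensitive potassium channels, was at 1.32 and 1.31 FPKM in the *VEGFA-LNC* controls and 0.102, 0.07 and 0.099 FPKM in the clones (log2 FC −2.90, SE 0.27, FDR 0.00232), on 7, 6 and 8 reads in the clones. Only in these 2 controls did *ABCC9* reach 1 cpm. It entered the test through the libraries where it is high, so its lower call is in part set by the filter. *SPX* was at 11.4 and 11.7 FPKM in the *VEGFA-LNC* controls and 2.53, 0.587 and 1.77 FPKM in the clones (log2 FC −2.96, SE 0.60, FDR 0.0398). *PTHLH*, the parathyroid hormone-like hormone, was at 1.76 and 1.9 FPKM in the *VEGFA-LNC* controls and 0.618, 0.332 and 0.528 FPKM in the clones (log2 FC −1.73, SE 0.33, FDR 0.0343). In each of these 3 genes both controls lie above the 3 clones and also above the 5 libraries of the *VEGFC-LNC* set, where *ABCC9* was at 0.046 and 0.009 FPKM in the *VEGFC-LNC* controls and 0.01, 0 and 0 FPKM in the *VEGFC-LNC* clones.

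*PLCZ1*, a phospholipase C known from sperm, was at 0.592 and 0.539 FPKM in the *VEGFA-LNC* controls and 0, 0 and 0.027 FPKM in the clones (log2 FC −2.62, SE 0.49, FDR 0.0321), and *SLCO1B7*, related to hepatic organic anion transporters, was at 0.362 and 0.696 FPKM in the *VEGFA-LNC* controls and 0, 0.057 and 0.06 FPKM in the clones (log2 FC −2.16, SE 0.39, FDR 0.0276). Both were near the lower limit of measurement, with 1 read and 4 reads over the 3 clones, so that the size of their log2 FC depends on the pseudocount. No *VEGFA-LNC* clone reached 1 cpm in either gene, so both met the filter through other libraries. For *PLCZ1* these include both *VEGFA-LNC* controls, its 2 highest libraries, so its call is in part set by the filter. *RASSF8*, a Ras association domain protein, had the highest FPKM of the genes that fell and was at 106 and 106 FPKM in the *VEGFA-LNC* controls, 68.1, 58.7 and 62.9 in the *VEGFA-LNC* clones, 60.7 and 60.7 in the *VEGFC-LNC* controls and 62.8, 69.98 and 59.95 in the *VEGFC-LNC* clones (log2 FC −0.75, SE 0.12, FDR 0.0201). Its clones 1 and 3 lie in the range of the *VEGFC-LNC* set and clone 2 just below it, and the *VEGFA-LNC* controls stand apart from the other 8 libraries. *TMTC1*, a transmembrane protein of the endoplasmic reticulum, rose from 0.244 and 0.208 FPKM in the controls to 2.94, 1.61 and 4.09 FPKM in the clones (log2 FC 3.10, SE 0.36, FDR 0.00685), with at most 1 read in each library of the *VEGFC-LNC* set. *LRMP*, a lymphoid-restricted membrane protein, rose from 0.374 and 0.32 FPKM to 0.826, 1.41 and 1.27 FPKM (log2 FC 1.48, SE 0.30, FDR 0.0397). *TM7SF3*, a membrane protein with transmembrane segments, rose from 53 and 54.1 FPKM to 84.7, 87.8 and 98.9 FPKM (log2 FC 0.75, SE 0.13, FDR 0.0272). In these 3 genes the clones lie above all 7 other libraries.

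The remaining calls lie in 12q14 to 12q21. *CYP27B1*, the enzyme that activates vitamin D, was at 6.04 and 5.88 FPKM in the *VEGFA-LNC* controls, 2.88, 2.06 and 2.56 in the *VEGFA-LNC* clones, 2.81 and 2.87 in the *VEGFC-LNC* controls and 2.63, 2.49 and 3.11 in the *VEGFC-LNC* clones (log2 FC −1.24, SE 0.18, FDR 0.0156 in the *VEGFA-LNC* comparison). *CTDSP2*, a small phosphatase of the RNA polymerase II tail, was at 18.8 and 19.4 FPKM in the *VEGFA-LNC* controls, 33.2, 38.5 and 34.5 in the *VEGFA-LNC* clones, 31.7 and 34.1 in the *VEGFC-LNC* controls and 20.4, 24.9 and 20.9 in the *VEGFC-LNC* clones (log2 FC 0.88, SE 0.13, FDR 0.0156). *GLIPR1*, a secreted and membrane glycoprotein, was at 80.8 and 83.9 FPKM in the *VEGFA-LNC* controls, 35.7, 25.9 and 35.4 in the *VEGFA-LNC* clones, 21.1 and 21.6 in the *VEGFC-LNC* controls and 8.54, 7.33 and 13.8 in the *VEGFC-LNC* clones (log2 FC −1.36, SE 0.25, FDR 0.0319). Its row overlaps that of *KRR1* on the other strand, and whether strand was used in counting is not given in the sources used here. In *CYP27B1* and *GLIPR1* the *VEGFA-LNC* controls were again the highest of the 10 libraries. Over all 8 genes that fell, both *VEGFA-LNC* controls lay above the other 8 libraries in 7, and the 3 clones lay below the other 7 libraries in 2. Over the 4 that rose, the clones lay above the other 7 libraries in 3, *CTDSP2* being the exception.

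The study's lists for *VEGFA-LNC*, drawn from these libraries, name 9 members. *SPX*, *ABCC9*, *PLCZ1*, *LRMP* and *TMTC1* passed the test here and are given above, and *CLEC2B*, *PIK3C2G*, *PLEKHA5* and *GTSF1* did not (FDR 0.121, 0.135, 0.0703 and 0.0925). *PLEKHA5*, a pleckstrin homology protein, was at 0.867 and 1.01 FPKM in the *VEGFA-LNC* controls and 2.68, 2.4 and 3.35 FPKM in the clones. *CLEC2B*, a lectin-like receptor ligand, was at 1.5 and 1.37 FPKM in the *VEGFA-LNC* controls and 2.15, 7.16 and 4.84 FPKM in the clones, and in both genes the groups do not overlap.

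By list, the *VEGFA-LNC* comparison called 2 of 27 members of RAS, growth factor and WNT signalling (*RASSF8* and *PTHLH*, lower). It called 2 of 21 members of the broad endothelial and angiogenic list (*TMTC1* higher and *ABCC9* lower), neither of which is among the 8 endothelial markers. It called 1 of 16 immune and lectin-like members (*LRMP*, higher) and none in the other 8 lists. These are 7.41%, 9.52% and 6.25% of the lists, where 2.75% of all tested genes were called. The lists were written with earlier results of these data known, and the study's own lists name *TMTC1*, *ABCC9* and *LRMP*. Each share also rests on 1 or 2 genes, so nothing is read from these shares. The medians of the lists lay between −0.40 (keratins, and RAS signalling) and 0.21 (immune), where the median of all tested genes was −0.06. *KRT8* was at 285 and 282 FPKM in the *VEGFA-LNC* controls and 348, 128 and 198 FPKM in the clones (log2 FC −0.46, SE 0.39, FDR 0.567), with clone 1 above and clones 2 and 3 below the controls.

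The *VEGFC-LNC* controls enter the comparison that chose the stretch, so their difference from the *VEGFA-LNC* controls is given as a description. The median over the members was −0.06, where it was −0.11 over the other tested genes, and scaling by the median of ratios moved them to 0.05 and −0.01. By window it ran from −0.20 to 0.24. Values of 3 of the genes named above, picked after they were seen, show how far single members can stand apart. *SPX* stood at 11.4 and 11.7 FPKM in one set and at 0.593 and 0.662 FPKM in the other, *AMIGO2* at 84.6 and 87.1 and 20.8 and 23.8 FPKM, and *HNRNPA1* at 209.9 and 170.1 and 501 and 486 FPKM.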

How the data were processed

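The authors trimmed reads with Trim Galore (version 0.4.4) and aligned them to GRCh37 with STAR (version 2.5.4b), per the submitters' processing notes. The deposited table gives FPKM values for RefSeq transcripts on hg19, scaled by the authors to transcript length and library size, and the deposited length of each transcript in bases. The study's methods name featureCounts on Gencode genes for its tests, and how the deposited RefSeq table was counted is not given in the sources used here. FPKM multiplied by length came to whole reads for 100% of the values checked (tolerance 0.1 reads), which gave 6743975 to 24197615 reads per library. The values checked were those above 0 with low read numbers and small rounding error. Reads carry no molecular identifiers, so that intervals cover counting error only. No column of a comparison by the authors was used. Rows without a gene name (42) were left out.

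The 13333 genes that reached 1 cpm in at least 2 libraries were compared as log2(FPKM + 0.1), in a single fit of 4 groups with a mean-variance trend, using limma (version 3.58.1) under R (version 4.3.3). FDRs follow Benjamini and Hochberg over all tested genes. A call needs an FDR under 0.05 and a fold change of at least 1.5. Fold changes on this scale understate the change of low genes. Clones were compared with the controls of their own deletion. An exact test over 3 clones and 2 controls was not used, since its smallest p is 0.1. The procedure was tested on simulated data with large changes and the same spread in every group. That setting does not cover the unequal spread of clones and controls. The members and the gene lists were chosen with earlier results of these data known. Named genes are *GAPDH*, the 4 most abundant members of each list, up to 10 members called upon *VEGFA-LNC* deletion, the 5 largest increases and decreases upon *VEGFC-LNC* deletion with a mean of at least 1 FPKM, 4 genes on each side of the end position and members in the study's gene lists; *RASSF8*, *TM7SF3*, *CDKN1B*, *CDK2*, *CDK4* and *MDM2* were added after their values were seen. Upstream sequences were read from the GRCh37 genome at the listed starts, for all 434 members. A few items are not reported here. Replicate numbers did not pair clones with controls.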

Additional observations from a re-analysis of the deposited data

Results flagged for a closer look

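Relative to the genes of other chromosomes, all 3 *VEGFA-LNC* clones lay above the mean of their controls, by 0.0839, 0.0277 and 0.0476 on the log2 scale, and all 3 *VEGFC-LNC* clones lay below theirs, at −0.408, −0.335 and −0.368. The *VEGFA-LNC* shifts are small, since the means of the 2 control sets themselves stood at 0.0655 and 0.138 on this scale. The difference between the deletions was not tested, since the *VEGFC-LNC* comparison chose the stretch.

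The *VEGFA-LNC* and *VEGFC-LNC* clones also lay on opposite sides of their own controls for 2 of the members called upon *VEGFA-LNC* deletion. *CTDSP2* was higher upon *VEGFA-LNC* deletion (log2 FC 0.88) and lower upon *VEGFC-LNC* deletion (−0.58). *SLCO1B7* was lower upon *VEGFA-LNC* deletion (log2 FC −2.16) and higher upon *VEGFC-LNC* deletion (1.10). Neither difference was tested.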

How the results depend on the processing

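The median *VEGFC-LNC* difference of the members was −0.47 as reported and stayed below 0 under every alternative run. That comparison chose the stretch, so its sign is given as a description and not as support. The median of the members was −0.37 with a pseudocount of 1, −0.28 with no filter on low values (715 genes) and −0.39 with scaling by the median of ratios. The median of the other tested genes was −0.06, 0.00 and −0.004 in these runs, in the same order, and −0.08 in the reported one. The *VEGFA-LNC* median was −0.0537 with no filter and 0.0459 with scaling by the median of ratios, and the median between control sets was −0.0444 with a pseudocount of 1, −0.124 with no filter, −0.0302 with the filter in all 10 libraries, 0.0462 with scaling and −0.0856 without members whose rows overlap (chosen after seeing the data). Leaving out each library in turn gave −0.47 to −0.44 for *VEGFC-LNC*, −0.0150 to 0.0243 for *VEGFA-LNC* and −0.0607 to −0.0467 between control sets. A run without a library of the other deletion set leaves the median of a deletion unchanged. The count of calls moved more. Instead of 12 members upon *VEGFA-LNC* deletion (2.76%, and 2.75% of all tested genes), limma called 20 with no filter (2.80% and 2.86%), 5 with the filter in all 10 libraries (1.35% and 2.20%), 2 with all 4 controls pooled (0.461% and 0.218%) and 0 with control pairs averaged (0% of all tested genes, 30 members with an unadjusted p under 0.05, chosen after seeing the data). Leaving out a library gave 0 to 65 calls, the highest without *VEGFA-LNC* clone 1 (13% of all tested genes) and the lowest without either *VEGFA-LNC* control. The cause of these moves was not tested. Calls of members upon *VEGFC-LNC* deletion, planned as a description, are not given, since that comparison chose the stretch.

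With the replicate block, 5 members (1.15%, and 1.13% of all tested genes) were called upon *VEGFA-LNC* deletion, and the medians kept their direction. *ABCC9*, *TMTC1*, *CTDSP2*, *CYP27B1* and *GLIPR1* kept their call, and *RASSF8*, *SPX*, *PTHLH*, *PLCZ1*, *SLCO1B7*, *LRMP* and *TM7SF3* had an FDR of 0.0513 to 0.0876 with the same direction. Clones and controls of the same number did not deviate together (correlation −0.06 to 0.05). Clones of the same number in the 2 deletions had correlations of 0.55, 0.41 and 0.22, a hint from the data and not from the labels. The value for clone 3 does not stand out. *VEGFA-LNC* clone 2 with *VEGFC-LNC* clone 3 had 0.26, and *VEGFA-LNC* clone 3 with *VEGFC-LNC* clone 2 had 0.18. Over all groups the correlation was −0.06 to 0.55 for the same number and −0.54 to 0.26 for others.

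Depth limits the members with few reads, such as *PLCZ1*, *SLCO1B7* and *TBC1D30*, whose log2 values depend on the pseudocount.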
